A study of Homo sapiens with 12 samples.

Results

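The 9 genes described here encode transcriptional cyclin-dependent kinases (CDKs) other than CDK9 and CDK11, with the cyclins and the assembly factor that bind them. They were taken by name from the deposited table and not by a rule on their values, though earlier results of these data were known. CDK7, CCNH and MNAT1 belong to TFIIH, CDK8, CDK19 and CCNC to the Mediator kinase module, and CDK12, CDK13 and CCNK to the complexes that cyclin K forms with its kinases. All 9 of the 9 listed genes were among the 23619 genes of the table, and all 9 were among the 11379 that averaged at least 1 FPKM and were tested. FPKM as usually defined count fragments per length of transcript and per sequenced fragments, so that levels of different genes can be set side by side. Whether and how the deposited values were scaled further is not given in the sources used here.

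The cells were MOLT4, a long-established human line of T-cell acute lymphoblastic leukemia, kept for 6 h in 250 nM THAL-SNS-032, in 250 nM NVP-2, in 250 nM SNS-032 or in 0.1% DMSO, the vehicle, with 3 libraries in each of the 4 groups. SNS-032 inhibits several CDKs, among them CDK9 and CDK7. In THAL-SNS-032 that inhibitor is joined to a thalidomide-type group that binds cereblon, which picks substrates for a ubiquitin ligase. NVP-2 inhibits CDK9. The labels name no other agent and no genetic change, and they leave unstated whether replicates were separate cultures, so the p-values cover the spread between these libraries, which may be technical.

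RNA polymerase II carries a long repetitive tail whose phosphorylation changes as the enzyme starts, pauses, elongates and ends a transcript. CDK7 with cyclin H and MAT1, the product of MNAT1, is the kinase part of the initiation factor TFIIH. It phosphorylates that tail at promoters and also activates the cell cycle CDKs. CDK8 or its paralogue CDK19 pairs with cyclin C in a module that binds the Mediator coactivator reversibly, while CDK12 or CDK13 pairs with cyclin K and phosphorylates the tail during elongation. CDK12 is known for sustaining the expression of long DNA damage response genes.

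Spike-in RNAs (ERCC) were added at cell lysis. On the deposited scale the medians of 31 spike-ins lay between -0.031 and 0.039 (log2) of the DMSO mean in all 12 libraries, and the genes did not share that level. The median tested gene changed by -1.90 with THAL-SNS-032, by -2.54 with NVP-2 and by -1.92 with SNS-032, as a difference in log2(FPKM + 1) from DMSO. SNS-032 replicate 1 stood apart, with a median gene change of -2.323, against -1.676 and -1.771 in replicates 2 and 3 of that group. The table gives no read counts, so the depth of each library is unknown. Per the labels, cells were counted before RNA isolation, but how that count and the spike-in amounts were matched is not given in the sources used here, so that in these bulk values fewer cells and less RNA per cell cannot be told apart. All 9 markers of immature T cells reached a mean of 1 FPKM in every group, and their summed level was 483 to 562 FPKM with THAL-SNS-032, 281 to 330 with NVP-2, 309 to 527 with SNS-032 and 1600 to 1950 in DMSO. Of 4 myeloid markers, 3 reached 1 FPKM with THAL-SNS-032, 0 with NVP-2, 1 with SNS-032 and 0 in DMSO, at summed levels of 4.17 to 5.34, 0.514 to 0.626, 1.87 to 3.60 and 0.823 to 0.976 FPKM in the same order of groups. Of 4 markers of B cells 1, CD79A, reached 1 FPKM in each group, with summed levels of at most 6.73, 3.38, 5.32 and 10.1 FPKM in that order, and 0 of 3 epithelial markers did so in any group. No marker was listed at 0, since the lowest values of the table lie near a floor of about 0.1 FPKM, and the part of these markers in the results was not tested.

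On the deposited scale all 9 transcripts fell with each of the 3 compounds, and in each comparison all 3 treated libraries lay below all 3 DMSO libraries for every one of the 9 genes. Among all tested genes 94.8% were called lower with THAL-SNS-032, 97.1% with NVP-2 and 94.6% with SNS-032, and libraries lay apart and lower for 95.9%, 97.8% and 94.8% in the same order, so a count of 9 of 9 is near this background. What differed between the 9 genes was the size of the fall, which ran between -4.29 and -1.63 with THAL-SNS-032, between -4.76 and -2.07 with NVP-2 and between -3.19 and -1.13 with SNS-032. Their median change was -2.79, -3.17 and -2.50 with the compounds in that order, against the medians of -1.90, -2.54 and -1.92 over all tested genes. The fall was larger than that of the median gene for 8 of 9 genes with THAL-SNS-032 (the exception was CDK19), for 8 of 9 with NVP-2 (again CDK19) and for 7 of 9 with SNS-032 (the exceptions were CDK19 and CCNK). Each library was also centred on its own median of log2(FPKM + 1), which removes a shift equal for all genes on that scale. A factor shared by all genes in FPKM is not fully removed, since the pseudocount shortens it for low genes. Centring turned the change positive for CDK19 with all 3 compounds, for MNAT1 with THAL-SNS-032, for CDK12 with NVP-2 and for CCNK with SNS-032. The median change of all tested genes after centring was 0.36, 0.42 and 0.25 for THAL-SNS-032, NVP-2 and SNS-032, so MNAT1 (0.10) and CDK12 (0.18) were still below the median gene in those comparisons. Called genes split into 6513 higher and 3319 lower under THAL-SNS-032, 6788 and 3198 under NVP-2, and 5987 and 3538 under SNS-032 after that centring, against 156 and 10786, 51 and 11048, and 175 and 10759 on the deposited scale. The largest adjusted p among the 27 deposited-scale changes of the 9 genes was 5.37e-05, for CCNK with SNS-032 (limma, Benjamini-Hochberg adjusted over all tested genes, called under 0.05).

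**Figure D1:**
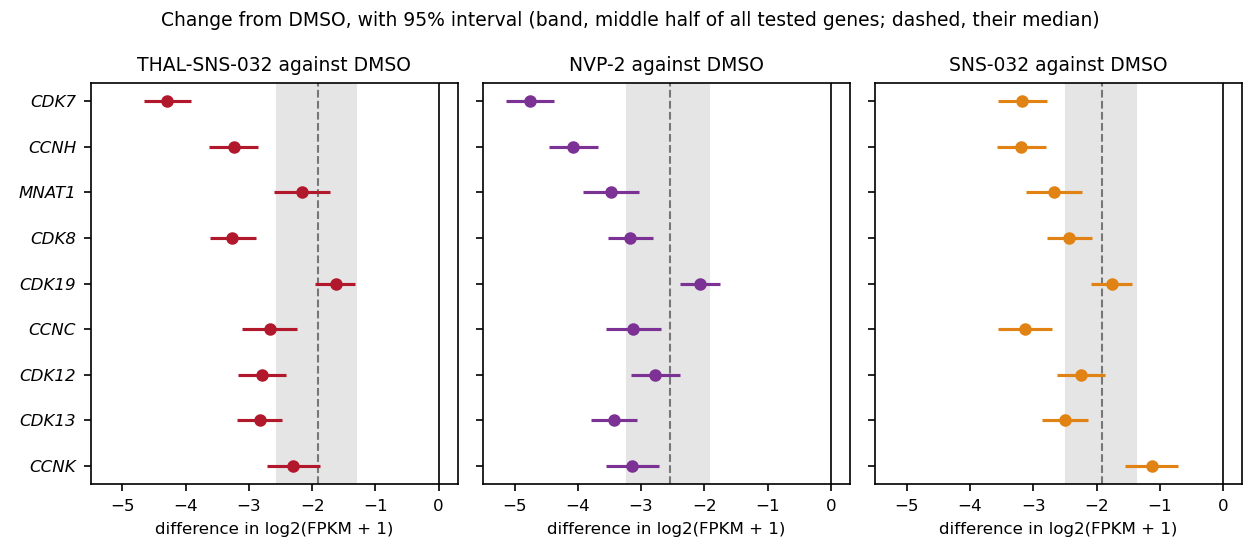
Change of each of the 9 genes from DMSO (x axis, difference in log2(FPKM + 1)) with THAL-SNS-032, NVP-2 and SNS-032, from left to right. Points are the fitted changes with their 95% intervals, the grey band spans the lower to the upper quartile of the 11379 tested genes and the dashed line is their median (-1.90, -2.54 and -1.92). CDK7 lies far to the left of the band with THAL-SNS-032 (-4.29) and NVP-2 (-4.76), CDK19 lies right of the dashed line in each panel, and CCNK lies right of the band with SNS-032 (-1.13).

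Of the 3 TFIIH kinase genes, CDK7 had the smallest share of its DMSO mean left with each compound. The catalytic subunit CDK7 stood at 1.21, 1.48 and 1.16 FPKM in the THAL-SNS-032 libraries, at 0.578, 0.639 and 0.719 in the NVP-2 libraries, at 2.53, 5.19 and 4.52 in the SNS-032 libraries and at 42.7, 43.1 and 44.6 in the DMSO libraries. The 4 groups did not overlap, with NVP-2 lowest, then THAL-SNS-032, then SNS-032, and DMSO far above them. The mean was 2.95% of DMSO with THAL-SNS-032 (a change of -4.29, SE 0.18, adjusted p = 2.42e-11), 1.49% with NVP-2 (-4.76, SE 0.18, adjusted p = 5.33e-12) and 9.39% with SNS-032 (-3.17, SE 0.18, adjusted p = 2.96e-10). Few genes fell as far: 1.44% of all tested genes had a more negative change with THAL-SNS-032, 2.95% with NVP-2 and 7.69% with SNS-032. With NVP-2 the mean of CDK7 was 0.645 ± 0.0706 FPKM (SD, n = 3), the sole group mean under 1 FPKM among the 9 genes, and a pseudocount of 1 shortens changes of such low values. With a pseudocount of 0.1 FPKM the changes of CDK7 were -4.98 with THAL-SNS-032, -5.87 with NVP-2 and -3.44 with SNS-032.

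Cyclin H, the cyclin partner of CDK7, fell with each compound, and its change was smaller than that of its kinase with THAL-SNS-032 and NVP-2 and nearly equal to it with SNS-032. CCNH read 6.29, 6.53 and 5.42 FPKM under THAL-SNS-032, 2.76, 3.24 and 2.93 under NVP-2, 4.37, 7.38 and 7.74 under SNS-032, and 59.2, 66.2 and 72.8 in DMSO. The THAL-SNS-032 and SNS-032 libraries overlapped, the NVP-2 libraries lay below both, and the DMSO libraries lay above all others. Its changes from DMSO were -3.24 (SE 0.18, adjusted p = 2.69e-10), -4.07 (SE 0.18, adjusted p = 1.60e-11) and -3.19 (SE 0.18, adjusted p = 3.56e-10) for THAL-SNS-032, NVP-2 and SNS-032.

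MAT1 holds CDK7 and cyclin H together and anchors them in TFIIH. MNAT1 read 12.9, 13.1 and 12 FPKM under THAL-SNS-032, 4.52, 4.5 and 4.43 under NVP-2, 5.49, 12.1 and 9.33 under SNS-032, and 55.3, 59.8 and 65.3 in DMSO. The NVP-2 libraries were again lowest and the SNS-032 libraries spread widely, with replicate 2 inside the range of the THAL-SNS-032 libraries. The change was -2.16 with THAL-SNS-032 (SE 0.21, adjusted p = 7.60e-08), which was close to the median gene and became 0.10 after centring, -3.48 with NVP-2 (SE 0.21, adjusted p = 2.11e-10) and -2.67 with SNS-032 (SE 0.21, adjusted p = 7.01e-09). The 3 subunits of 1 kinase complex therefore lay at 2.95%, 9.20% and 21.1% of their DMSO means with THAL-SNS-032, at 1.49%, 4.51% and 7.46% with NVP-2 and at 9.39%, 9.83% and 14.9% with SNS-032, in the order CDK7, CCNH and MNAT1.

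**Figure D2:**
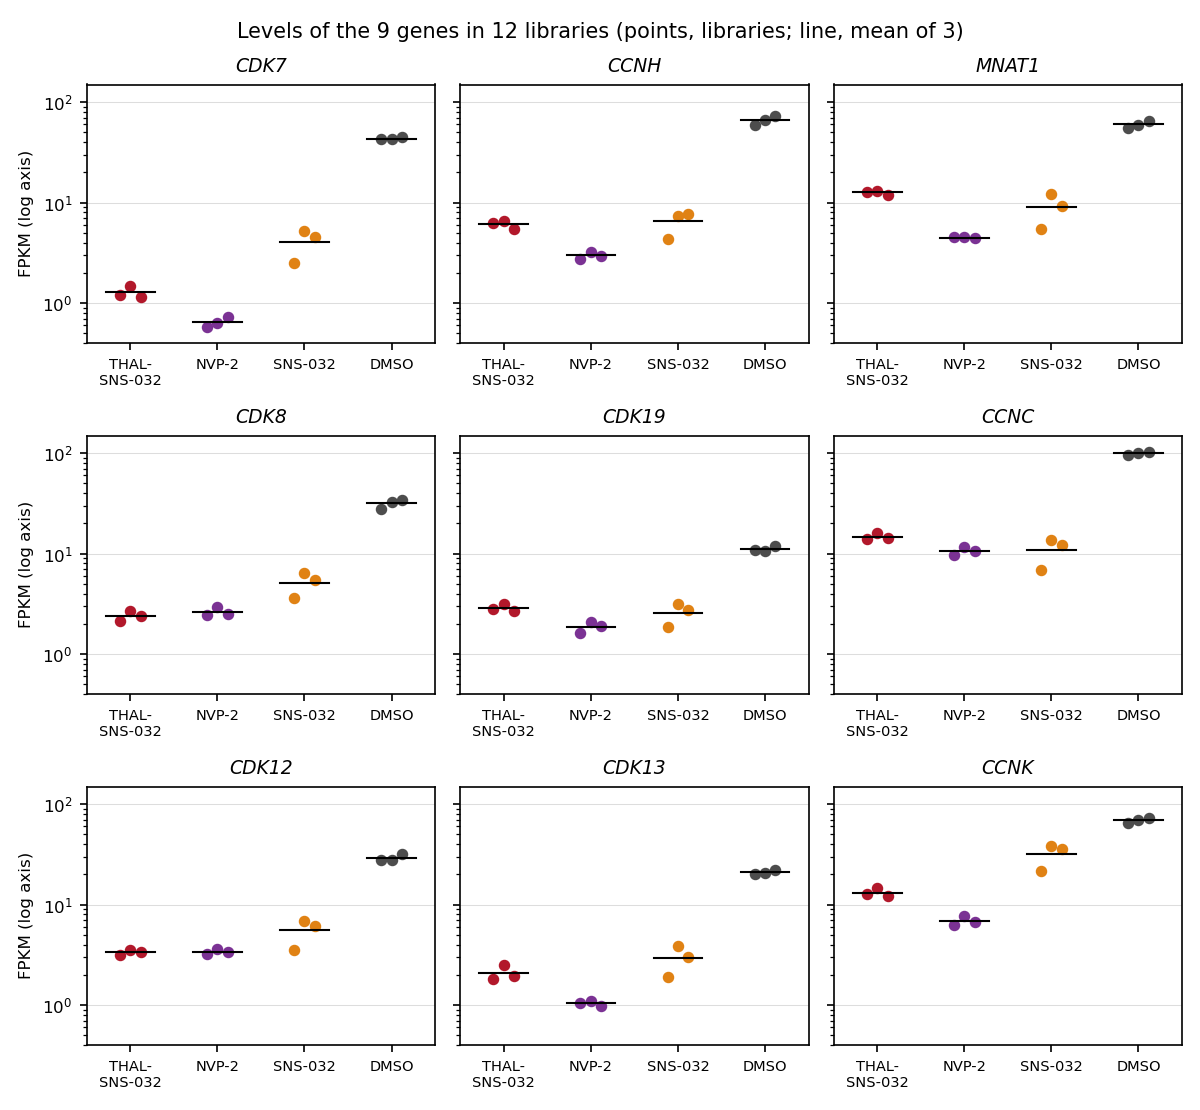
Level of each of the 9 genes in every library (y axis, FPKM on a log axis), with 1 panel per gene and, from left to right, the THAL-SNS-032, NVP-2, SNS-032 and DMSO libraries. Points are libraries and lines are means of 3. DMSO libraries lie above all treated libraries in each panel, CDK7 with NVP-2 is lowest at 0.578 to 0.719 FPKM, and CCNK with SNS-032 stays at 21.7 to 38.4 FPKM.

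Of the Mediator kinase genes, CDK8 had a more negative change than its paralogue CDK19 with each compound. CDK8, a kinase of the module, read 2.12, 2.69 and 2.42 FPKM under THAL-SNS-032, 2.45, 2.91 and 2.49 under NVP-2, 3.64, 6.37 and 5.40 under SNS-032, and 28.1, 32.3 and 34.5 in DMSO. The THAL-SNS-032 and NVP-2 libraries overlapped and the SNS-032 libraries lay above both. The change of CDK8 was -3.26 with THAL-SNS-032 (SE 0.17, adjusted p = 1.38e-10), -3.17 with NVP-2 (SE 0.17, adjusted p = 7.90e-11) and -2.43 with SNS-032 (SE 0.17, adjusted p = 2.68e-09).

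CDK19, which can take the place of CDK8 in the module, had the lowest level of the 9 genes in DMSO. It read 2.79, 3.16 and 2.69 FPKM under THAL-SNS-032, 1.62, 2.08 and 1.92 under NVP-2, 1.88, 3.17 and 2.72 under SNS-032, and 10.8, 10.5 and 11.8 in DMSO. The SNS-032 libraries covered the range of the THAL-SNS-032 libraries and overlapped those of NVP-2. CDK19 kept the largest share of its DMSO mean among the 9 genes with THAL-SNS-032, 26.1% (-1.63, SE 0.15, adjusted p = 4.38e-08), and with NVP-2, 17.0% (-2.07, SE 0.15, adjusted p = 1.78e-09). With SNS-032 it kept 23.5% (-1.76, SE 0.15, adjusted p = 1.90e-08), where CCNK kept more. On the scale used for testing, the fall of CDK19 was smaller than that of the median gene by 0.27, 0.47 and 0.16 with the compounds in that order. The pseudocount of that scale shortens changes of low values, such as those of CDK19. With a pseudocount of 0.1 FPKM its changes were -1.9 with THAL-SNS-032, -2.5 with NVP-2 and -2.08 with SNS-032. The median gene at that pseudocount is not given here, so how far these gaps depend on the pseudocount was not tested.

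Cyclin C, which serves both Mediator kinases, was the most abundant of the 9 transcripts in DMSO. CCNC read 14.1, 15.9 and 14.4 FPKM under THAL-SNS-032, 9.63, 11.6 and 10.5 under NVP-2, 6.85, 13.6 and 12.3 under SNS-032, and 96.6, 99.6 and 102 in DMSO. All SNS-032 libraries lay below the THAL-SNS-032 libraries, and SNS-032 replicate 1 lay below every NVP-2 library. The changes were -2.67 with THAL-SNS-032 (SE 0.20, adjusted p = 5.80e-09), -3.12 with NVP-2 (SE 0.20, adjusted p = 5.74e-10) and -3.13 with SNS-032 (SE 0.20, adjusted p = 1.19e-09). Set against all tested genes, 21.9% fell further than CCNC with THAL-SNS-032, 28.3% with NVP-2 and 8.36% with SNS-032.

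Among cyclin K and its 2 kinases, the cyclin gene differed most between compounds. CDK12, which binds cyclin K, read 3.17, 3.5 and 3.38 FPKM under THAL-SNS-032, 3.19, 3.59 and 3.4 under NVP-2, 3.56, 6.88 and 6.18 under SNS-032, and 27.9, 27.9 and 31.7 in DMSO. The THAL-SNS-032 and NVP-2 values were nearly the same, and SNS-032 replicate 1 lay just below the highest NVP-2 library. The changes were -2.79 (SE 0.18, adjusted p = 1.05e-09) with THAL-SNS-032, -2.78 (SE 0.18, adjusted p = 5.71e-10) with NVP-2 and -2.24 (SE 0.18, adjusted p = 1.14e-08) with SNS-032.

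CDK13, the closest relative of CDK12, separated the compounds in another way. It read 1.82, 2.50 and 1.93 FPKM under THAL-SNS-032, 1.04, 1.09 and 0.972 under NVP-2, 1.92, 3.90 and 3.0 under SNS-032, and 20.0, 20.5 and 22.1 in DMSO. The NVP-2 libraries lay below all others, while the THAL-SNS-032 and SNS-032 libraries overlapped. The change of CDK13 was -2.83 with THAL-SNS-032 (SE 0.17, adjusted p = 4.99e-10), -3.42 with NVP-2 (SE 0.17, adjusted p = 3.73e-11) and -2.50 with SNS-032 (SE 0.17, adjusted p = 1.95e-09).

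CCNK was the member least reduced by SNS-032. It read 12.7, 14.8 and 12.2 FPKM under THAL-SNS-032, 6.26, 7.79 and 6.78 under NVP-2, 21.7, 38.4 and 35.8 under SNS-032, and 64.3, 69.5 and 73.6 in DMSO. The groups did not overlap, and they lay in the order NVP-2, THAL-SNS-032, SNS-032 and DMSO, from low to high. CCNK stood at 19.1% of its DMSO mean with THAL-SNS-032 (-2.30, SE 0.20, adjusted p = 2.26e-08), at 10.0% with NVP-2 (-3.14, SE 0.20, adjusted p = 3.94e-10) and at 46.2% with SNS-032 (-1.13, SE 0.20, adjusted p = 5.37e-05). With SNS-032, 83.9% of all tested genes fell further than CCNK, against 33.6% under THAL-SNS-032 and 27.5% under NVP-2. After centring its change with SNS-032 was 1.04.

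The order of levels among the 9 genes changed with treatment. In DMSO it ran CCNC, CCNK, CCNH, MNAT1, CDK7, CDK8, CDK12, CDK13 and CDK19, from 99.6 ± 2.92 to 11 ± 0.667 FPKM (SD, n = 3), and the neighbours CCNK and CCNH, CCNH and MNAT1, and CDK8 and CDK12 overlapped. With NVP-2 and likewise with THAL-SNS-032, CDK7 was the lowest of the 9 and its libraries lay apart from those of CDK13, the next gene above. With SNS-032, CCNK was highest and apart from CCNC, the next gene below, while each of the neighbours from CCNC down to CDK19 overlapped.

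The first contrast between compounds concerned SNS-032 with and without its attached cereblon ligand, both at 250 nM for 6 h. With THAL-SNS-032, 4 of the 9 transcripts were lower than with SNS-032 and 0 were higher, where 16.7% of all tested genes were called lower and 13.4% higher and the median gene differed by 0.14. On the log2(FPKM + 1) scale the largest difference was that of CCNK, at 41.4% of its SNS-032 mean (-1.18, SE 0.20, 95% interval -1.60 to -0.75, adjusted p = 0.000441). CDK7, with lower values, was at 31.4% (-1.12, SE 0.18, interval -1.50 to -0.74, adjusted p = 0.000276) and CDK8 at 46.9% (-0.82, SE 0.17, interval -1.19 to -0.46, adjusted p = 0.00219). CDK12 passed by less (-0.55, SE 0.18, interval -0.93 to -0.17, adjusted p = 0.0321), and it did not pass without SNS-032 replicate 2 (-0.40), SNS-032 replicate 3 (-0.46), or THAL-SNS-032 replicate 1 (-0.52), 2 (-0.57) or 3 (-0.55). For all 4 of these genes the 3 THAL-SNS-032 libraries lay below all 3 SNS-032 libraries, as they did for 15.9% of tested genes. For CDK7, CDK8 and CCNK the differences after centring were -1.03, -0.74 and -1.09.

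The other 5 genes did not pass in that contrast. CCNH differed by -0.05 (interval -0.44 to 0.34, adjusted p = 0.840), CDK19 by 0.13 (interval -0.19 to 0.44, adjusted p = 0.520) and CDK13 by -0.33 (interval -0.69 to 0.03, adjusted p = 0.154). MNAT1 differed by 0.52 (interval 0.08 to 0.95, adjusted p = 0.0706) and CCNC by 0.45 (interval 0.02 to 0.89, adjusted p = 0.102). The intervals of all 5 genes stayed within a difference of 1 on this log2 scale in either direction, with MNAT1 reaching 0.95 and CCNC 0.89. Leaving out SNS-032 replicate 2 brought MNAT1 (0.74) and CCNC (0.63) past the threshold, and leaving out SNS-032 replicate 1 brought CDK13 past it (-0.53). After centring 8 of the 9 genes passed, 3 higher and 5 lower, CCNH being the exception. Called genes then split into 5820 higher and 2627 lower, against 1526 and 1900 on the deposited scale. The median tested gene was at 0.22 after centring, so CDK19 (0.21), called higher, was near the median gene.

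NVP-2 was next set against SNS-032 at the same dose and time, as the second of the 3 compound pairs compared. Lower with NVP-2 were 7 of the 9 transcripts and higher 0, where 52.6% of all tested genes were called lower and 0.782% higher and the median gene differed by -0.48. CCNK again had the largest difference on the log2(FPKM + 1) scale, at 21.7% of its SNS-032 mean (-2.02, SE 0.20, adjusted p = 8.39e-07), followed by CDK7 at 15.8% (-1.59, SE 0.18, adjusted p = 3.22e-06). CDK13 (-0.92), CCNH (-0.88), MNAT1 (-0.80) and CDK8 (-0.74) were lower with adjusted p between 0.000354 and 0.00428. CDK12 passed at -0.54 (adjusted p = 0.0211) although its libraries overlapped, and it did not pass without NVP-2 replicate 1 (-0.50), NVP-2 replicate 3 (-0.54), SNS-032 replicate 2 (-0.38) or SNS-032 replicate 3 (-0.45).

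CDK19 (-0.31, interval -0.62 to 0.01, adjusted p = 0.0924) and CCNC (0.01, interval -0.42 to 0.44, adjusted p = 0.979) did not pass between NVP-2 and SNS-032. Both rested on SNS-032 replicate 1: without it CDK19 (-0.46) and CCNC (-0.27) were called lower, and 9376 genes were called in place of 6078. After centring, called genes split into 6711 higher and 2816 lower, against 89 and 5989. CDK7 (-0.80) and CCNK (-1.23) kept their direction and their call, CCNH (-0.09), MNAT1 (-0.01) and CDK13 (-0.13) no longer passed, and neither did CDK8, which turned positive (0.05). CDK12 (0.25), called lower on the deposited scale, was called higher after centring, as were CDK19 (0.48) and CCNC (0.80). The median tested gene was at 0.31 after centring, so CDK12 and CDK8 were below it.

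THAL-SNS-032 was then set against NVP-2. Here 6 of the 9 transcripts were higher with THAL-SNS-032 and 0 lower, where 70.0% of all tested genes were called higher and 0.993% lower and the median gene differed by 0.64. MNAT1 differed most, at 1.32 (SE 0.21, adjusted p = 0.000133), and was the one gene of the 6 whose difference exceeded the median gene by over 0.5. CCNK (0.84, adjusted p = 0.00201), CCNH (0.83, adjusted p = 0.00133) and CDK13 (0.59, adjusted p = 0.00668) followed. CDK7 (0.47, adjusted p = 0.0281) lost its call without THAL-SNS-032 replicate 1 (0.49) or 2 (0.41) and without NVP-2 replicate 1 (0.44), 2 (0.47) or 3 (0.50). CDK19 (0.43, adjusted p = 0.0174) lost its call without THAL-SNS-032 replicate 2 (0.38) or NVP-2 replicate 1 (0.37). The 3 THAL-SNS-032 libraries of CDK7 lay above all 3 NVP-2 libraries, as they did for 84.7% of tested genes. Its mean was 1.99 times that with NVP-2, and the pseudocount shortens differences at such low values. With a pseudocount of 0.1 FPKM the difference of CDK7 was 0.89 (adjusted p = 0.00258), and with 5 FPKM it was 0.15, without a call.

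CDK8 (-0.09, interval -0.45 to 0.28, adjusted p = 0.659) and CDK12 (-0.01, interval -0.40 to 0.37, adjusted p = 0.954) did not differ detectably between THAL-SNS-032 and NVP-2, and 4.77% and 6.37% of tested genes had a more negative difference. CCNC did not pass (0.45, interval 0.01 to 0.88, adjusted p = 0.0603), and it passed at the same 0.45 without SNS-032 replicate 1 or 2, with only the 6 libraries of the comparison and with a minimum mean of 5 FPKM. After centring, MNAT1 (0.61) and CCNK (0.14) were still called higher, and CCNH (0.13) and CDK13 (-0.11) lost their calls. CDK7 (-0.23) and CDK19 (-0.27), called higher on the deposited scale, were called lower after centring, as were CDK8 (-0.79), CDK12 (-0.72) and CCNC (-0.26). In FPKM, CDK7 was at 1.99 times its NVP-2 mean, near CCNH (2.04), CDK13 (2.01) and CCNK (1.90). The pseudocount shortens differences of low genes before centring, so opposite signs of CDK7 and CCNH do not show an unequal change. Called genes split after centring into 3339 higher and 4329 lower, against 7968 and 113. The median tested gene was at -0.07 after centring.

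**Figure D3:**
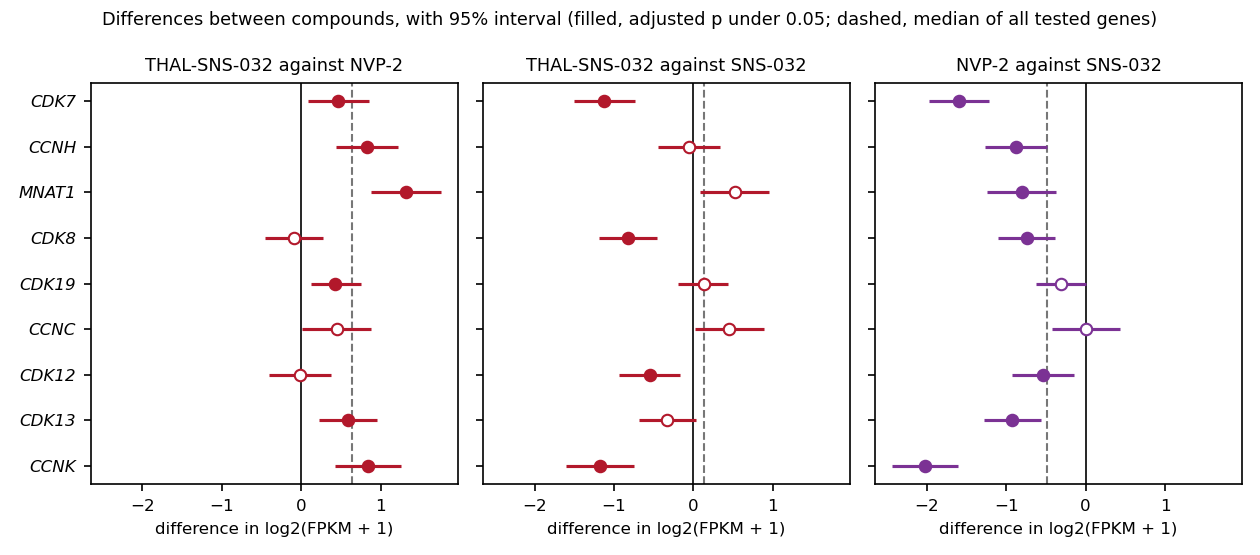
Differences of the 9 genes between compounds (x axis, difference in log2(FPKM + 1)) for THAL-SNS-032 against NVP-2, THAL-SNS-032 against SNS-032 and NVP-2 against SNS-032, from left to right. Points are fitted differences with 95% intervals, filled where the adjusted p is under 0.05, and the dashed line is the median of all tested genes (0.64, 0.14 and -0.48). CCNK (-1.18) and CDK7 (-1.12) lie left of the dashed line in the middle panel, where CCNH (-0.05) lies at 0.

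Partner genes and paralogues were also compared as ratios of FPKM. A ratio of 2 genes in the same library is free of a single factor applied to all genes of that library. A scaling that depends on level would not cancel, and the scaling used is not given in the sources used here. Such a ratio shows unequal change and not which gene moved. CDK8 over CDK19 was 0.760, 0.853 and 0.901 under THAL-SNS-032, 1.51, 1.40 and 1.30 under NVP-2, 1.93, 2.01 and 1.99 under SNS-032, and 2.60, 3.07 and 2.93 in DMSO. CDK19 thus exceeded CDK8 in all 3 THAL-SNS-032 libraries, and CDK8 exceeded CDK19 in the other 9 libraries. No pair of groups overlapped, so each of the 6 comparisons reached the smallest p that 3 against 3 allows (exact two-sided permutation p = 0.1, 0.12 after Benjamini-Hochberg adjustment over 18 ratio comparisons). The mean log2 ratio differed from that of DMSO by -1.77 with THAL-SNS-032, by -1.03 with NVP-2 and by -0.53 with SNS-032.

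CDK12 over CDK13 was 1.74, 1.40 and 1.75 under THAL-SNS-032, 3.06, 3.29 and 3.49 under NVP-2, 1.85, 1.76 and 2.06 under SNS-032, and 1.40, 1.36 and 1.43 in DMSO. The NVP-2 libraries stood above all others, and the log2 ratio exceeded that of DMSO by 1.23 with NVP-2 and by 0.43 with SNS-032, with libraries apart in both (each exact permutation p = 0.1, adjusted 0.12). The THAL-SNS-032 libraries overlapped those of DMSO, at a difference of 0.22 (exact permutation p = 0.2, adjusted 0.225). CDK7 over CCNH was 0.192, 0.226 and 0.215 under THAL-SNS-032, 0.209, 0.197 and 0.245 under NVP-2, 0.578, 0.704 and 0.584 under SNS-032, and 0.721, 0.650 and 0.613 in DMSO. The kinase and its cyclin thus kept nearly the DMSO ratio with SNS-032 (difference -0.09, exact permutation p = 0.5, adjusted 0.529). The log2 ratio differed from that of DMSO by -1.65 with THAL-SNS-032 and by -1.61 with NVP-2 (both exact permutation p = 0.1, adjusted 0.12), and those 2 compounds overlapped (difference -0.04, exact permutation p = 0.8, adjusted 0.8).

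**Figure D4:**
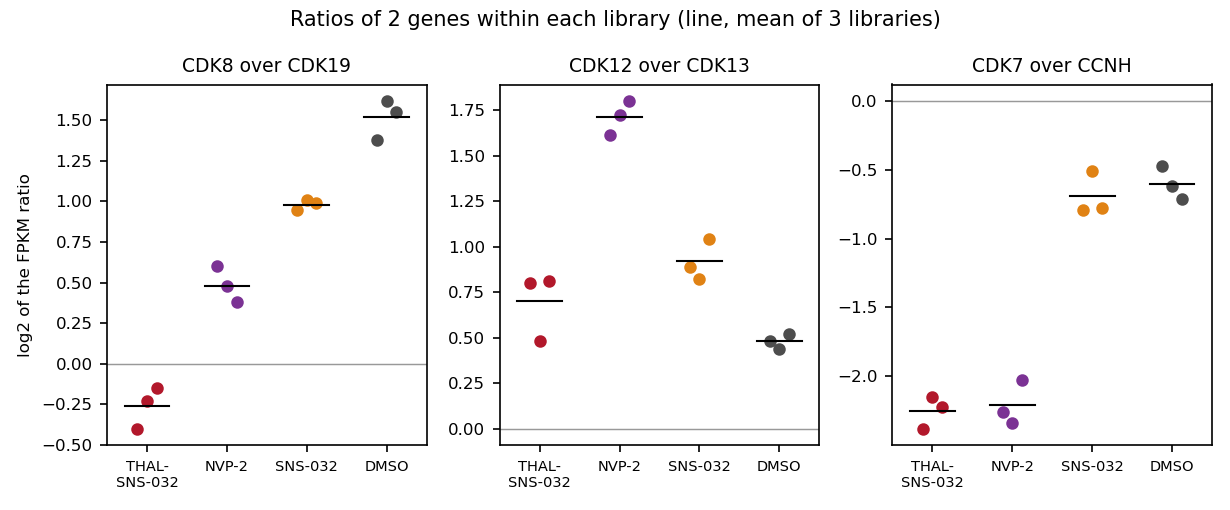
Ratios of CDK8 over CDK19, CDK12 over CDK13 and CDK7 over CCNH within each library (y axis, log2 of the FPKM ratio), for THAL-SNS-032, NVP-2, SNS-032 and DMSO from left to right in each panel. Points are libraries and lines are means of 3. CDK8 over CDK19 falls below 0 in the 3 THAL-SNS-032 libraries (mean -0.26), CDK12 over CDK13 is highest with NVP-2 (mean 1.71), and CDK7 over CCNH is near -2.25 and -2.21 with THAL-SNS-032 and NVP-2 and near -0.69 and -0.60 with SNS-032 and DMSO.

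The genes that work beside these kinases were followed from 6 short lists. The 7 subunits of the TFIIH core, which opens DNA at promoters and in nucleotide excision repair, all fell with each compound, at a median change of -1.92 with THAL-SNS-032, -2.73 with NVP-2 and -1.80 with SNS-032, close to the medians of all tested genes, and after centring the list's medians were 0.33, 0.23 and 0.37. GTF2H1 fell most with THAL-SNS-032 and NVP-2 (-2.81 and -3.78), while GTF2H3 fell least with THAL-SNS-032 and SNS-032 (-0.93 and -1.45). The level of GTF2H2 is uncertain, since near-identical copies of that gene can share reads. The change of CDK7 was more negative than that of every core subunit with all 3 compounds.

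The Mediator kinase module also holds MED12, MED13 and their paralogues MED12L and MED13L, which tie CDK8 or CDK19 to Mediator. Of these 4 genes 3 fell with THAL-SNS-032 (median -1.0), 4 with NVP-2 (median -2.10) and 3 with SNS-032 (median -1.33), and after centring the medians were 1.26, 0.86 and 0.84 in that order. MED12L changed by -0.09 with THAL-SNS-032 (adjusted p = 0.601) and by -0.34 with SNS-032 (adjusted p = 0.0567). Without SNS-032 replicate 2 or replicate 3 the count with SNS-032 was 4 of 4. It was also 4 of 4 with a pseudocount of 5 FPKM, with equal ERCC medians and with the replicate number as a block. The scaffold subunit MED12 was at 16.1 FPKM with THAL-SNS-032, 8.46 with NVP-2, 10.6 with SNS-032 and 32.3 in DMSO (means of 3).

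P-TEFb, the elongation kinase made of CDK9 with cyclin T1 or T2, fell in 3 of 3 genes with THAL-SNS-032 (median -2.25) and NVP-2 (median -2.83), and in 1 of 3 with SNS-032 (median -0.40), while centring gave medians of 0.01, 0.14 and 1.78. With SNS-032 the cyclin genes CCNT1 (-0.34, adjusted p = 0.0968) and CCNT2 (-0.40, adjusted p = 0.0542) did not pass, but the count was 3 of 3 without SNS-032 replicate 2, and 2 of 3 without replicate 3, with equal ERCC medians, with a pseudocount of 5 FPKM and with a minimum mean of 5 FPKM. CDK9 itself fell with each compound, with changes of -1.78, -2.83 and -1.76 for THAL-SNS-032, NVP-2 and SNS-032, and 0.48, 0.14 and 0.41 after centring. The L cyclins and their kinases CDK11A and CDK11B, which act in splicing and transcription, fell in 3 of 4 genes with THAL-SNS-032, in 4 of 4 with NVP-2 and in 4 of 4 with SNS-032, at medians of -0.83, -1.86 and -1.01 (after centring 1.43, 1.10 and 1.16). CDK11A and CDK11B are near-identical copies, so the split of reads between them is uncertain, and CCNL2 changed by -0.19 with THAL-SNS-032 (adjusted p = 0.377). Beside CCNK (-1.13), the cyclin genes CCNT1, CCNT2, CCNL1 (-0.90) and CCNL2 (-0.68) also changed less than the median gene with SNS-032, and CCNH (-3.19) and CCNC (-3.13) changed more.

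The cell cycle kinases CDK1, CDK2, CDK4 and CDK6, which CDK7 is known to activate at the protein level, fell in 4 of 4 genes with each compound, at medians of -1.78 with THAL-SNS-032, -2.97 with NVP-2 and -1.42 with SNS-032, and centring moved these medians to 0.48, -0.01 and 0.75. The 6 DNA repair and checkpoint genes known for their link to CDK12 (BRCA1, ATR, FANCD2, FANCI, ATM and CHEK1) fell in 6 of 6 with each compound, at medians of -1.38, -2.24 and -1.90 with THAL-SNS-032, NVP-2 and SNS-032, each smaller than or near the median gene, and after centring at 0.88, 0.72 and 0.27. The checkpoint kinase gene CHEK1 changed by -2.07, -2.85 and -2.47, while ATM, a long damage-signalling kinase gene, changed by -0.82, -1.49 and -1.27. The lists hold few genes, and their counts stand beside the shares of all tested genes called lower given above.

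**Figure D5:**
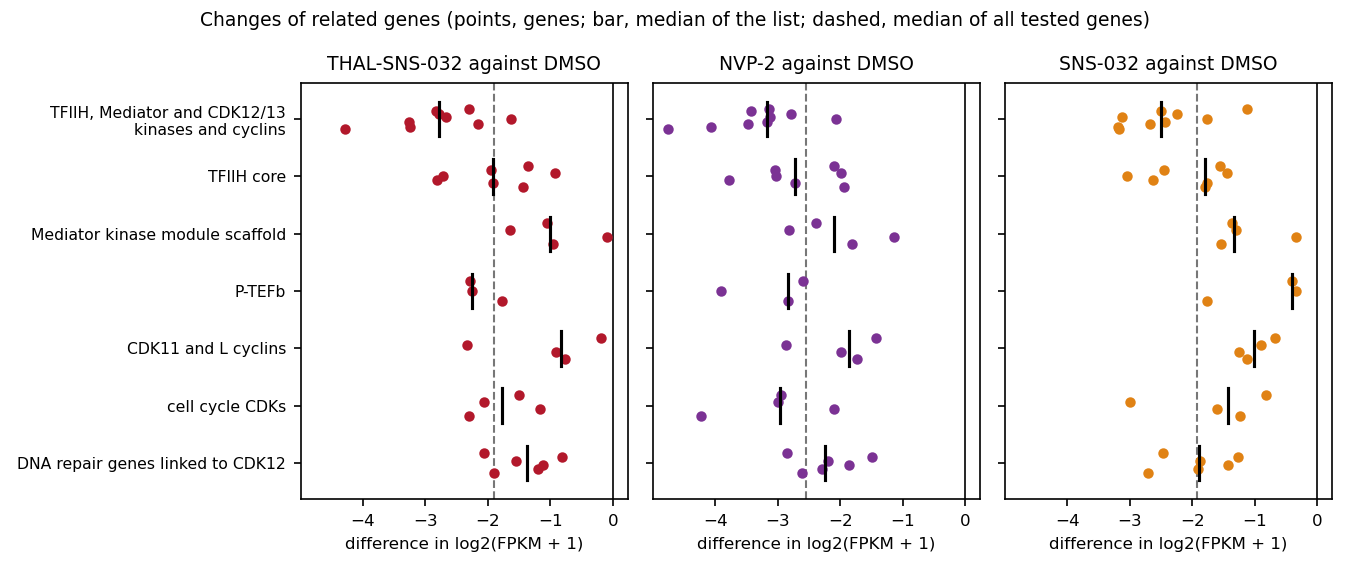
Changes from DMSO (x axis, difference in log2(FPKM + 1)) of the 9 genes and of the 6 related lists with THAL-SNS-032, NVP-2 and SNS-032, from left to right. Points are genes, short bars are list medians and the dashed line is the median of all tested genes. The 9 genes have the most negative median in the panels for THAL-SNS-032 (-2.79), NVP-2 (-3.17) and SNS-032 (-2.50), and the P-TEFb median lies at -2.25 with THAL-SNS-032, left of the dashed line, and at -0.40 with SNS-032, right of it.

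For each of the 9 genes the pair of tested genes with the most similar trio of changes from DMSO was looked up, as the smallest Euclidean distance over the 3 log2 changes, each a mean of 3 libraries against the same 3 DMSO libraries. CDK7 lay nearest to EMC7 (distance 0.0444) and SRRD (0.103), and EMC7 changed by -4.27 with THAL-SNS-032, -4.75 with NVP-2 and -3.21 with SNS-032. CCNK lay nearest to SEC24A (0.0689) and PPIG (0.0733), with PPIG at -2.32, -3.21 and -1.16. The nearest to CDK19 was TTC23 (0.0362), to CDK8 TNIP2 (0.0393), to CCNC MKS1 (0.0433), to MNAT1 ACTG1 (0.0540), to CDK13 MFN2 (0.0798), to CCNH KLHDC2 (0.0982) and to CDK12 FOXO3B (0.104). None of the 9 genes was among the pair nearest to another of them.

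The DNA just upstream of these genes was read for simple promoter letters. Windows of 250 bases before the most upstream RefSeq start (GRCh38.p14) were available for all 9 genes, and for 14705 genes of the table. Shown are CDK7, CDK8 and CCNK, the genes called lower in the THAL-SNS-032 libraries than in the SNS-032 libraries under each alternative run. Of the 9 genes, CCNK was also the least reduced by SNS-032. They lie on the + strand at chr5:69234545-69234794 (CDK7), chr13:26253879-26254128 (CDK8) and chr14:99481159-99481408 (CCNK). Each is written 5′ to 3′ with matches to the motifs named after the sequences in capitals.
CDK7: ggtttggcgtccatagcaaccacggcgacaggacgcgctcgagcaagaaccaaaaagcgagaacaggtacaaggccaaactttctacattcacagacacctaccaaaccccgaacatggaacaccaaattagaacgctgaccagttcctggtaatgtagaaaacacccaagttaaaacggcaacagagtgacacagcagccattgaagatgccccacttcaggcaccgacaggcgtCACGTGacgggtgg
CDK8: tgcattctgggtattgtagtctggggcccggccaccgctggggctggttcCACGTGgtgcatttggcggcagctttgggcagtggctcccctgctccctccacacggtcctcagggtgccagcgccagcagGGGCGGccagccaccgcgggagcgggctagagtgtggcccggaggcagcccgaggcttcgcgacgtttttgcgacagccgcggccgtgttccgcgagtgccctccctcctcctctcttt
CCNK: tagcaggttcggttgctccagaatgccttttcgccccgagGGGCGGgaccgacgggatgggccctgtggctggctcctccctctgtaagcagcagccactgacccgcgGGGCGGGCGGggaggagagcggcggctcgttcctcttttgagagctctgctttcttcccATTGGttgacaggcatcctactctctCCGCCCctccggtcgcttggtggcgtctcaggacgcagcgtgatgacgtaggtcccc

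The motifs were searched on both strands, and a match is a description of letters only. The E-box CACGTG stood in the windows of CDK7 and CDK8, 2 of the 9, against 7.80% of all promoters in the table and 9.47% of those of tested genes. CCNK had no E-box. Its window held 4 matches to the GC box GGGCGG or its reverse complement, some of them overlapping each other, and a reversed CCAAT box. The GC box was found in CCNH, CDK8, CDK19, CDK13 and CCNK, 5 of the 9, against 55.5% of all promoters and 67.5% of those of tested genes. CCAAT stood in CDK19, CCNC and CCNK, 3 of the 9, against 34.5% and 36.3%. No window of the 9 held the ETS motif CCGGAAG (11.5% of all promoters and 17.6% of those of tested genes) or TATAAA (9.19% and 4.74%). The GC content was 52.0% for CDK7, 68.8% for CDK8 and 65.2% for CCNK, against a median of 64.8% over the promoters of tested genes. The E-box genes CDK7 and CDK8 and the other 7 genes were not tested against each other, as 2 genes allow no such comparison.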

How the data were processed

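RNA of 12 libraries of MOLT4 cells, 3 in each of 4 groups named in the labels, was used. Per the labels, cells were counted, lysed with ERCC spike-ins, and stranded libraries prepared from poly(A) RNA. The authors deposited FPKM values, 1 per gene and library. HISAT, Cufflinks 2.0.0 and build hg19 are named in the submitters' processing notes, and the use made of the spike-ins in scaling is not given in the sources used here. Without counts in the table, library depth and counting error are unknown.

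Without 92 ERCC entries and 2 repeated symbols the table held 23619 genes, 26 under names that had become dates. The 11379 that averaged at least 1 FPKM were tested on log2(FPKM + 1) by limma 3.58.1 with trend (R 4.3.3), in a fit of all 4 groups that leaves 8 residual degrees of freedom. Its 6 comparisons were two-sided, and p-values were adjusted by Benjamini-Hochberg over all tested genes and called under 0.05. Each SE rests on the spread of all groups, the uneven SNS-032 libraries included. Ratios of 2 genes were compared by exact permutation over libraries. The fit was tested on simulated data.

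The 9 genes, the 6 related lists and the markers were chosen with earlier results of these data known, and 1 gene of the DNA repair list is not reported here and was left out of its counts and medians. Named genes are the 9, those of the lists, the markers, and for each of the 9 the 2 tested genes with the nearest changes, short RNAs and unnamed loci left out. Alternatives, 1 choice at a time, were equal ERCC medians, median-centred libraries, a pseudocount of 0.1 or 5 FPKM, a minimum mean of 5 FPKM or none, no trend, only the 6 libraries of a comparison, a replicate block, each library left out, and for the ratios a pseudocount of 1 FPKM. Promoters are RefSeq's (GRCh38.p14), matched by symbol, and no other coordinates are given. Python 3.11.15 with matplotlib 3.10.9 drew the figures.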

Additional observations from a re-analysis of the deposited data

How the results depend on the processing

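All 9 genes were called lower than DMSO with each compound whichever library was left out, and under every other alternative except centring, with no value for CDK19 where a mean of 5 FPKM was asked, which removed it. Centring each library on its median turned the change from DMSO to 0.62 for CDK19 and 0.10 for MNAT1 with THAL-SNS-032, to 0.89 for CDK19 and 0.18 for CDK12 with NVP-2, and to 0.41 for CDK19 and 1.04 for CCNK with SNS-032, and it left CCNK with THAL-SNS-032 (-0.05) and CDK12 with SNS-032 (-0.07) without a call. Between compounds it turned CCNH to 0.03 for THAL-SNS-032 against SNS-032, CDK8 to 0.05, CDK19 to 0.48 and CDK12 to 0.25 for NVP-2 against SNS-032, and CDK7 to -0.23, CDK19 to -0.27, CCNC to -0.26 and CDK13 to -0.11 for THAL-SNS-032 against NVP-2. Genes that fell by less than the median level of their library turn positive in this way by construction. The pseudocount shortens differences of low genes before centring, and its part in these signs was not tested.

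Counts that moved were the genes called with NVP-2 against DMSO, 11099 as reported and 19614 with no filter, where more genes are tested. For THAL-SNS-032 against SNS-032, 3426 genes were called, against 8447 after centring and 2110 with only the 6 libraries of the comparison, and 4 of the 9 genes, against 8 after centring. For NVP-2 against SNS-032, 6078 genes were called, against 9527 after centring; beyond that construction the cause was not tested. Leaving out 1 library gave 2314 to 4922 genes and 3 to 5 of the 9 for THAL-SNS-032 against SNS-032, 4673 to 9376 genes and 6 to 9 of the 9 for NVP-2 against SNS-032, and 6651 to 9394 genes (8081 with all) and 4 to 7 of the 9 for THAL-SNS-032 against NVP-2. The sign turned within these left-out ranges for differences near 0: CDK19 (-0.02 to 0.24) and CCNH (-0.28 to 0.07) for THAL-SNS-032 against SNS-032, CCNC (-0.27 to 0.18) for NVP-2 against SNS-032, and CDK12 (-0.05 to 0.02) and the ratio of CDK7 over CCNH (-0.11 to 0.05) for THAL-SNS-032 against NVP-2. With a pseudocount of 5 FPKM CCNC was at -0.004 for NVP-2 against SNS-032 and CDK7 lost its call for THAL-SNS-032 against NVP-2 (0.15), and with a pseudocount of 1 FPKM the ratio of CDK7 over CCNH was at 0.02 for SNS-032 against DMSO. With no filter, and with only the 6 libraries of the comparison, CDK12 lost both its calls against SNS-032, and with no filter CDK7 lost its call between THAL-SNS-032 and NVP-2. Of the related lists, P-TEFb with SNS-032 had 1 of 3 genes called lower as reported. Under the settings named beside it, 2 or 3 of 3 were called lower. After centring the P-TEFb calls were in the other direction, higher in 3 of 3 genes with SNS-032 and in 1 of 3 with THAL-SNS-032. With NVP-2, 2 of the 4 cell cycle CDKs were then called, 1 higher and 1 lower. Equal ERCC medians and limma without trend changed no call of the 9. The ERCC medians were already nearly level on the deposited scale, so making them equal could change little.

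The labels do not say whether replicate numbers pair the libraries. Same-numbered libraries of 18 pairs of groups and numbers had correlations of deviations between -0.1512 and 0.1705, over 0.1 in 1 pair. Such weak correlations over 3 libraries per group cannot exclude a shared replicate effect. Replicate 1 had the lowest median gene change in each group, at -1.962, -2.612, -2.323 and -0.083 for THAL-SNS-032, NVP-2, SNS-032 and DMSO. With the replicate number as a block, 4440 genes and 6 of the 9 were called for THAL-SNS-032 against SNS-032, where MNAT1 (0.52) and CCNC (0.45) also passed, and 7 of the 9 for THAL-SNS-032 against NVP-2, where CCNC (0.45) also passed, and 2 of 3 P-TEFb genes with SNS-032; the counts of the 9 in the other 4 comparisons were as without the block.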
